A study of Daphnia magna with 24 samples.

Results

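Among the 7680 features of a Daphnia magna array, 34 lay above the control in every exposure to water from upstream of Walker Mine and from below its portal, but not on average in water from below the tailings or from Little Grizzly Creek. They were selected on the measured values of all 4 sites, so their levels there are given as a description. An exposure value was the mean log ratio of its 2 dye-swap arrays, and both arrays were needed. Each site needed at least 2 exposure values, which left 6504 features, and all 6 upstream and portal exposures had to be measured, which left 4044. Of these, 238 had all 6 values above 0.1. The 34 members are those among the 238 whose mean over the tailings exposures was at most 0 and above -0.8 and whose mean over the Little Grizzly Creek exposures was at most 0. They make up 14.3% of the 238. All 34 entered the tests on the 12 exposures, 29 with values in all 12 exposures and 5 with 1 blank Little Grizzly Creek exposure.

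The animals were adult females of genetically homogeneous Daphnia magna, 14 to 16 days old, cultured in COMBO, a defined medium. They spent 24 h at 23.5 °C in water from 1 of the 4 sites, and 10 to 15 whole animals were pooled for each exposure. Every site had 3 exposures. Each was hybridised on 2 arrays against unexposed animals from COMBO, with the Cy3 and Cy5 dyes exchanged, so that every value is relative to unexposed animals. The design text says that the sites differed in copper contamination and gives no concentrations. In RNA of whole animals, fewer cells of a type and less RNA per cell cannot be told apart.

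Daphnia magna is a filter-feeding freshwater crustacean and a standard test animal in aquatic toxicology. Copper is an essential cofactor of enzymes such as cytochrome c oxidase, and in excess it is toxic to crustaceans, which bind it with metallothioneins and can lose sodium balance under it. Water taken upstream of a mine serves in such studies as a local reference. The deposited table names features only by identifiers such as A1I2. None of the 7680 matched any of 28335 genes in the RefSeq table used here, so no gene name, function or sequence is given for any member.

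The direction of the ratios, exposed over control, is likely but not stated. If it is the opposite, every sign below turns and the 34 lie below the control at upstream and portal. The base of the logarithm is not stated either and was read as 2. Arrays of one exposure correlated between 0.616 and 0.910 across features. Among arrays with the same dye on the exposed animals, 5 of 132 pairs had a correlation under -0.3, down to -0.376. A correlation under -0.3 was taken to leave the sign of single exposures unsettled. The pairs also join different waters, so it does not show that a sign is turned. With upstream exposure 2 turned, the selection gave 2 features, neither of them among the 34. Exposures were unequal in spread, with an SD from 0.282 to 0.792 over all features with a value. Blanks numbered 132 to 2574 per array.

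The members stood modestly above the control at both sites that chose them. The median of their site means was 0.28 log2 units in upstream water, about 1.21-fold if the base is 2, with single members from 0.20 to 0.64. In portal water it was 0.32, about 1.24-fold, with members from 0.11 to 0.77. In tailings water the median was -0.026, with members from -0.11 to -0.0011, and in Little Grizzly Creek water it was -0.050, with members from -0.28 to -0.00021. The same medians over the 6504 features were -0.019, -0.0049, -0.0073 and -0.0025 in that order of sites. The members at tailings and Little Grizzly Creek were thus mostly near the control and not far below it. Single exposures decided these last medians: the tailings median was 0.013, above the control, without tailings exposure 2 and -0.076 without tailings exposure 3. The creek median was -0.027, -0.0080 and -0.12 without creek exposures 1, 2 and 3.

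**Figure D1:**
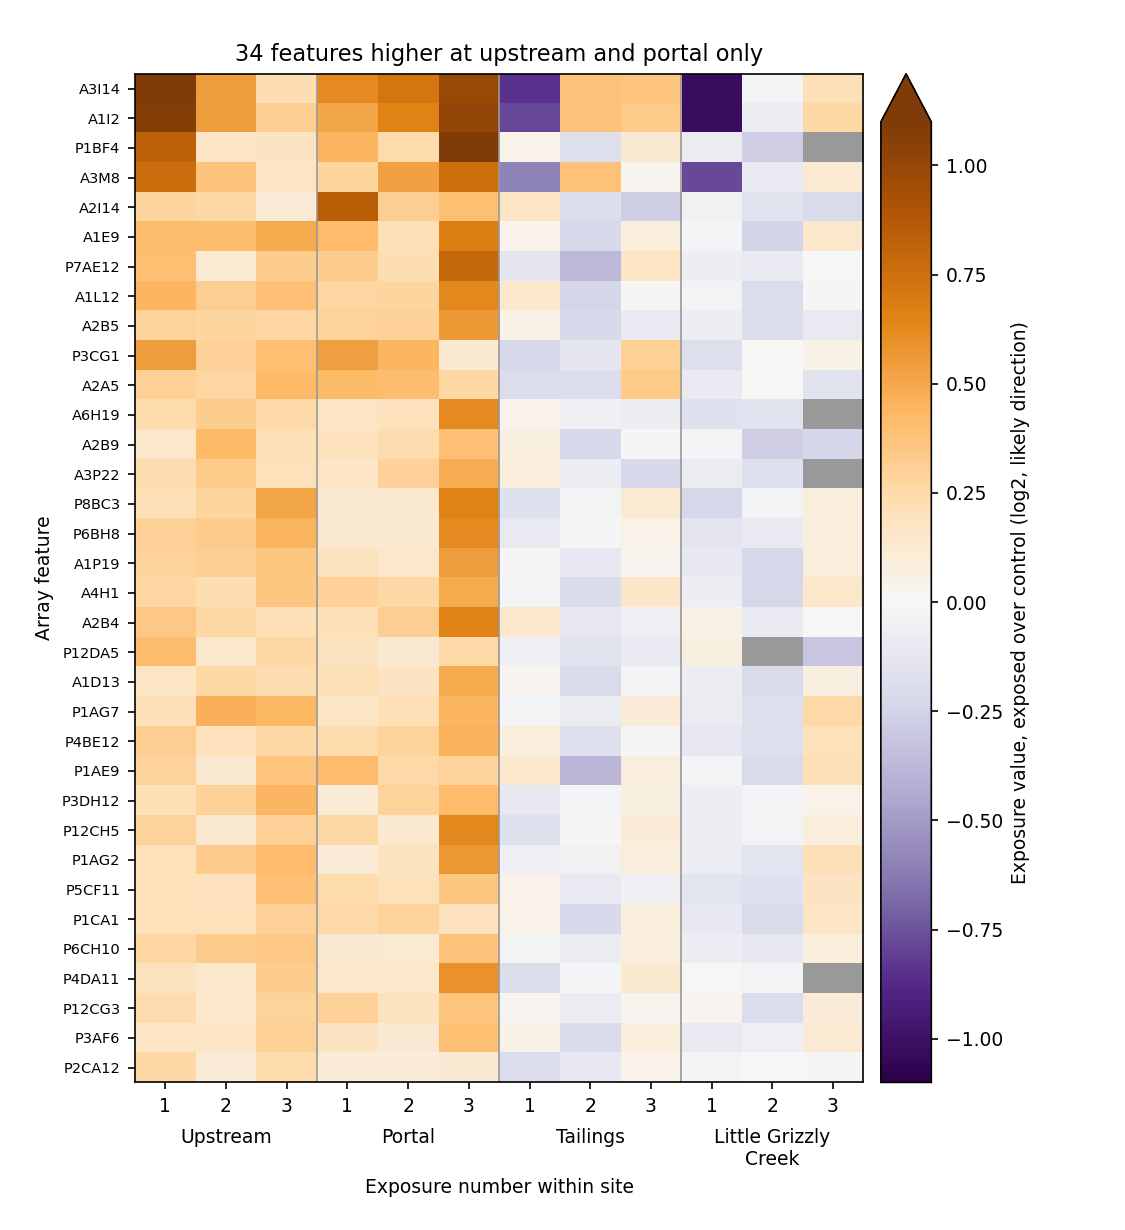
Exposure values of the 34 members (rows, ordered by the difference between the upstream and portal mean and the tailings and Little Grizzly Creek mean) in the 12 exposures (columns, 3 per site). Colour gives the log2 ratio of exposed over control, with orange above 0, purple below 0 and grey blank, and the darkest orange also stands for values beyond the scale. The 6 columns of upstream and portal water are orange throughout, and the strongest purple belongs to A1I2, A3I14 and A3M8, in exposure 1 of the tailings and of the creek.

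The exposures of upstream water were close to each other over the members. Their medians were 0.28 in exposure 1 (lowest 0.15, highest 1.13), 0.27 in exposure 2 (0.10 to 0.54) and 0.31 in exposure 3 (0.11 to 0.51). The median SD of a member among the 3 upstream exposures was 0.088, against 0.142 over all tested features, and 6 members had more spread than that. A floor of 0.1 in every exposure favours features of low spread, so this is in part the selection.

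The portal exposures were less even. Their medians were 0.24 in exposure 1 (0.10 to 0.84), 0.23 in exposure 2 (0.10 to 0.71) and 0.49 in exposure 3 (0.12 to 1.47). Portal exposure 3 was the highest of the 6 upstream and portal values for 20 of the 34 members, upstream exposure 1 for 6, upstream exposure 3 for 4, and portal exposure 2 for 0. Portal exposure 3 also had the widest spread of all 12, with an SD of 0.789 over the tested features, against 0.286 in portal exposure 2. Ranked among all features with a value in the same exposure, the median member stood at percentile 81.4 in portal exposure 3, below its place in portal exposure 2 (86.2) and in upstream exposures 1, 2 and 3 (87.0, 85.9 and 85.3). In portal exposure 1 it stood at 80.4. By rank, portal exposure 3 was the highest of the 6 for 0 members and upstream exposure 3 for 10. Portal exposure 3 was therefore the highest in level but not in rank.

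**Figure D2:**
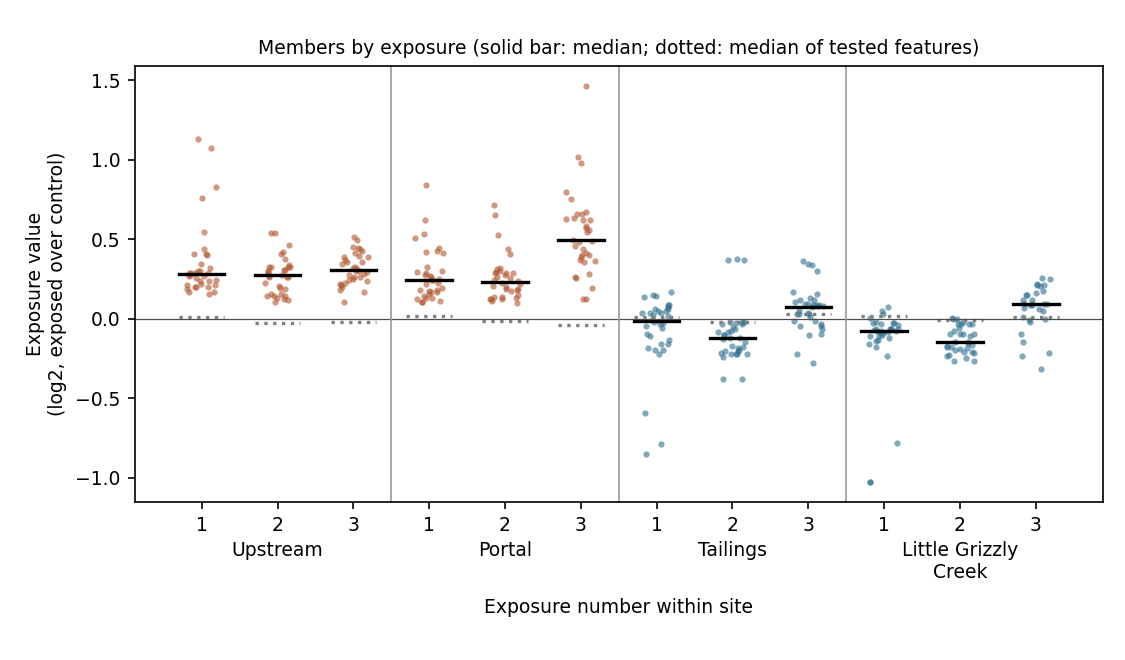
Exposure values of the members in each of the 12 exposures. Each point is 1 feature, the solid bar is the median over members, and the dotted bar is the median over all tested features. The members' medians lie between 0.23 and 0.49 in the 6 upstream and portal exposures and between -0.15 and 0.091 in the other 6.

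By rank the members lay in the upper part of every upstream and portal exposure, as the floor of 0.1 required. All 34 were at or above percentile 50 in every one of the 6 exposures, 9 were at or above percentile 75 in all 6, and 0 were at or above percentile 90 in all 6. The floor fixed the first count, as 28.8% to 36.9% of tested features exceeded 0.1 in these exposures. Shares of all features were not computed for the other counts, so nothing is read from them. The portal mean was above the upstream mean in 23 members and below it in 11. The share of all features with either order was not computed. The median difference, portal minus upstream, was 0.043 log2 units, with a range from -0.11 to 0.33, against a median of -0.00084 over all tested features. Without portal exposure 3 the median of the members' portal means was 0.23, below the upstream median of 0.28. Without portal exposure 1 or 2 it was 0.37 and 0.36. By limma 0 of the 34 differed between portal and upstream water after adjustment, where 0% of all tested features did, and 0 had an unadjusted p under 0.05, against 3.06% of all.

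At all 4 sites the median over members was lowest in exposure 2 and highest in exposure 3. In exposures 1, 2 and 3 it was 0.28, 0.27 and 0.31 in upstream water and 0.24, 0.23 and 0.49 in portal water. At these sites the order held only in log ratios, as exposure 2 had the smallest spread over tested features. Divided by the SD over tested features, the upstream medians were 0.55, 0.97 and 0.56 in exposures 1, 2 and 3. The portal medians were then 0.45, 0.81 and 0.63, so exposure 2 was the highest at both sites. The members' tailings medians were -0.013, -0.12 and 0.077 in exposures 1, 2 and 3. Their Little Grizzly Creek medians were -0.076, -0.15 and 0.091. In exposure 2, 31 of 34 members lay below 0 in tailings water and 31 of 33 in Little Grizzly Creek water, where 54.0% and 51.2% of all tested features did. In exposure 3, 10 of 34 and 8 of 30 lay below 0, where 45.2% and 47.9% of all tested features did. The selection capped both site means at 0, so every member had at least 1 exposure at or below 0 at each of these sites. The counts below 0 are thus in part the selection, which did not fix the exposure number. Below 0 in all exposures of a site were 1 member in tailings water and 8 in Little Grizzly Creek water. The labels do not say whether exposures of one number shared control animals, and the part of that in this pattern was not tested. Tailings and Little Grizzly Creek water differed by limma in 0 of the 34 members after adjustment (0% of all tested features) and in 0 at an unadjusted p under 0.05 (3.31% of all).

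Upstream and portal values were separate from the others in most members. In 23 of the 34, the lowest upstream or portal exposure was above every measured tailings and Little Grizzly Creek exposure, as in 3.54% of the 4044 features with all 6 exposures measured. The reverse, every upstream and portal value below all others, was found in 7.27% of the 4044. The selection sets a floor under the first group and a ceiling on the means of the second, so nothing is read from this count. The gap between the groups was small, with a median of 0.048 and a highest value of 0.22. In the other 11 members the groups overlapped by 0.014 to 0.21. The highest value outside upstream and portal lay in Little Grizzly Creek exposure 3 for 4 of these, in tailings exposure 2 for 3, in tailings exposure 3 for 3 and in tailings exposure 1 for 1. Compared within one exposure number, both upstream and portal exceeded every measured value of the other sites in 34 members for exposure 1 (28.8% of all), in 33 for exposure 2 (28.8% of all) and in 30 for exposure 3 (27.1% of all).

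P1BF4 had the widest difference among members without overlap. Its upstream exposures were 0.83, 0.16 and 0.18, and its portal exposures 0.44, 0.25 and 1.47. The tailings exposures were 0.039, -0.18 and 0.12, and Little Grizzly Creek exposures 1 and 2 were -0.080 and -0.27, with exposure 3 blank. Upstream exposure 1 and portal exposure 3 stood high, and the other 4 upstream and portal values were much nearer to the highest tailings value. Its site means were 0.39 ± 0.38 upstream (SD, n = 3), 0.72 ± 0.65 in portal (SD, n = 3), -0.0060 ± 0.15 in tailings (SD, n = 3) and -0.17 ± 0.13 at the creek (SD, n = 2).

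A1E9 came next and was far more even. It stood at 0.41, 0.41 and 0.49 in upstream and at 0.42, 0.21 and 0.67 in portal water. Its tailings exposures were 0.039, -0.22 and 0.091, and its Little Grizzly Creek exposures -0.019, -0.25 and 0.15. The lowest value of the first group, portal exposure 2, was 0.055 above the highest of the second. The means were 0.44 ± 0.048 (upstream), 0.43 ± 0.23 (portal), -0.030 ± 0.17 (tailings) and -0.038 ± 0.20 (Little Grizzly Creek), as SD with n = 3 each.

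P7AE12 and P12DA5 had the lowest tailings means. P7AE12 stood at 0.40, 0.12 and 0.32 upstream and at 0.32, 0.23 and 0.80 in portal water. In tailings water it was at -0.13, -0.37 and 0.17, so that exposure 3 lay above upstream exposure 2, and in Little Grizzly Creek water at -0.065, -0.094 and -0.0075. P12DA5 was at 0.41, 0.15 and 0.26 upstream and at 0.18, 0.13 and 0.26 in portal water. It was at -0.048, -0.15 and -0.098 in tailings water, the only member below 0 in all 3 tailings exposures, and at 0.076 and -0.32 in Little Grizzly Creek exposures 1 and 3, with exposure 2 blank. Even these tailings means, -0.11 ± 0.27 and -0.098 ± 0.050 (SD, n = 3 each), were far above the lower limit of -0.8, which removed none of the candidates.

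The floor and the ceilings cut through a continuous range. P2CA12 and P3DH12 were just inside the floor of 0.1, with lowest values of 0.103 and 0.105, and A7B10 and P9DC9 just outside, with 0.094 in both. P2CA12 also had the smallest difference between the groups of any member, with upstream exposures of 0.26, 0.10 and 0.24, portal exposures of 0.11, 0.10 and 0.12, tailings exposures of -0.19, -0.10 and 0.038 and Little Grizzly Creek exposures of -0.027, -0.0011 and 0.0090. P3DH12 was at 0.22, 0.29 and 0.45 upstream, at 0.10, 0.29 and 0.41 in portal, at -0.11, -0.028 and 0.073 in tailings and at -0.065, -0.018 and 0.051 in Little Grizzly Creek water. A further 25 features met every other condition with a lowest value between 0.05 and 0.1, and 16 of the 34 members had a lowest value under 0.15. On the other edges, P1AG7 had a tailings mean of -0.0011 and A2C18, outside, one of 0.0015, while P1AG2 had a Little Grizzly Creek mean of -0.00021 and P2BH5, outside, one of 0.00024.

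A1I2, A3I14 and A3M8 stood apart from the other 31 members. A3M8, A6B14, A6P9, A5B10 and the grouping of the 3 were chosen after the values were seen. A1I2 and A3I14 had the highest means in both upstream and portal water and the lowest in Little Grizzly Creek water. A1I2 was at 1.08, 0.54 and 0.31 upstream and at 0.51, 0.66 and 1.02 in portal water. In tailings water it was at -0.79, 0.37 and 0.34, and in Little Grizzly Creek water at -1.02, -0.079 and 0.26. It was thus low in exposure 1 of both waters and above the control in tailings exposures 2 and 3.

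A3I14 followed nearly the same values. It was at 1.13, 0.54 and 0.22 upstream, at 0.62, 0.71 and 0.98 in portal, at -0.85, 0.37 and 0.36 in tailings and at -1.02, -0.033 and 0.21 in creek water. A3M8 was at 0.76, 0.38 and 0.17, at 0.28, 0.53 and 0.75, at -0.59, 0.38 and 0.029 and at -0.78, -0.094 and 0.12 in the same order of sites. In these 3 the tailings means of -0.026 ± 0.66, -0.038 ± 0.70 and -0.060 ± 0.49 (SD, n = 3 each) joined values far apart on both sides of 0. In tailings exposure 1 the other 31 lay between -0.22 and 0.17, and in tailings exposure 2 all 31 lay between -0.38 and -0.016, on the opposite side of the 3.

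**Figure D3:**
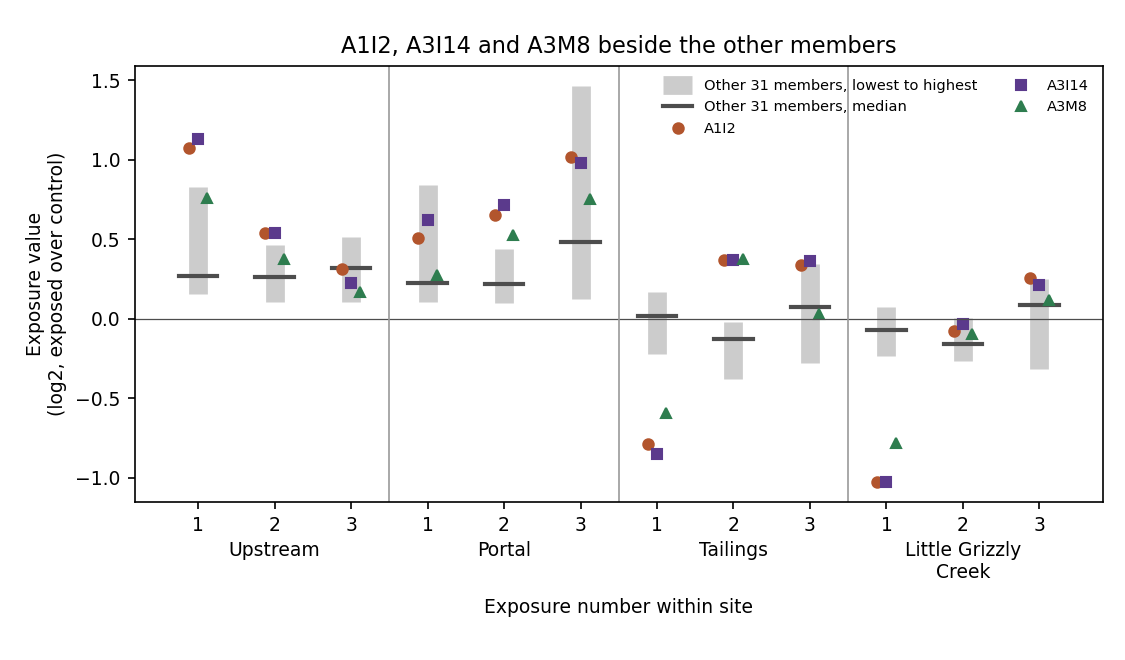
Exposure values of A1I2, A3I14 and A3M8 (symbols) beside the other 31 members (grey bars from lowest to highest, dark line at the median) in the 12 exposures. The 3 lie below the grey bars in exposure 1 of the tailings and of the creek, down to -1.02, and above them in tailings exposure 2, at 0.37 to 0.38.

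Over the 12 exposures A1I2 correlated at 0.996 with A3I14 and at 0.986 with A3M8, and these were the closest to it of the 3661 features with all 12 values. Next came A6B14 (0.962) and A6P9 (0.944), which are not members because their lowest upstream or portal values were 0.068 and 0.045. Part of any correlation among members is set by the selection. With each member's means over upstream and portal and over tailings and Little Grizzly Creek taken out, the median correlation was 0.973 within the 3, 0.491 among the 26 others with all 12 values (325 pairs, from -0.79 to 0.951) and 0.118 between both sets. These correlations describe features that share the same 12 exposures and the same arrays. The 3 were grouped after these same values were seen, so nothing is read from the difference between both sets. A1E9, of the larger set, was closest to A5B10 (0.977), a feature outside the list only because its Little Grizzly Creek mean was 0.0047, and 82 features correlated with it above 0.9, 13 of them members.

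Against the control, limma fitted to all 12 exposures called 0 of the 34 members in upstream water and 0 in portal water after Benjamini-Hochberg adjustment over 6504 features, where it called 0% of all features as higher in either water. At an unadjusted p under 0.05, 29 of the 34 were higher in upstream water (7.83% of all features) and 32 in portal water (11.1% of all). The selection used these contrasts, so nothing is read from either share. With the exposure number as a replicate block, 13 members were called in upstream water (2.8% of all) and 24 in portal water (7.13% of all). In a test against 0 the block leaves variation shared by an exposure number out of the error, and with the number as a random effect both counts were 0 (0% of all in both). After quantile normalisation the counts were 13 in upstream water (2.86% of all) and 0 in portal water, and with arrays scaled to one median absolute deviation they were 14 (2.86% of all) and 0. Without portal exposure 3, 5 were called in upstream water (1.14% of all), and without portal exposure 2, 11 in portal water (5.03% of all). None of the 34 was called lower than the control by limma in tailings water (2.37% of all features) or in Little Grizzly Creek water (1.89% of all), and at an unadjusted p under 0.05 the counts were also 0 (6.5% and 6.21% of all).

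Set against each other, upstream and portal averaged 0.36 log2 units above tailings and Little Grizzly Creek over the members (median, range 0.20 to 0.86), about 1.28-fold if the base is 2, while the median over tested features was -0.00049. The fit called 23 of the 34 as higher, and 4.12% of all tested features, while 34 of 34 and 13.7% of all had an unadjusted p under 0.05. Both counts again describe the selection. Leaving out upstream exposure 1 or 3 gave counts of 13 (2.95% of all) and 4 (1.53%), and leaving out portal exposure 3 gave 15 (3.2%). Leaving out tailings exposure 1 or 2 gave 12 (2.76%) and 6 (2.04%). Leaving out creek exposure 1 or 2 gave 5 (1.49%) and 9 (2.33%), where blanks left 29 and 30 of the members to test. The counts over all features were thus lower in each of these fits too. With upstream exposure 2 turned the count was 0 (1.91% of all). The count and the share of all were higher without portal exposure 2, at 26 (8.01%), and with the replicate block, at 29 (9.31%). The selection itself gave 16, 17 and 59 features when creek exposures 1, 2 and 3 were left out in turn. Of the 34 members, 15, 17 and 33 were among them. Without portal exposure 3 it gave 59, with all 34 among them.

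Single arrays were not used by the selection other than through their means. Of 408 upstream and portal array values of the members, 12 were at or below 0 and 44 at or below 0.1, of which 16 belonged to portal exposure 1 and 5 to portal exposure 3. In 24 members all 12 of these arrays were above 0, and in 10 all 12 were above 0.1. The dye-swap error of an exposure value, defined as the absolute difference of its 2 arrays divided by 2, had a median of 0.082 over the members in upstream and portal water. The exposure value exceeded its own error in 192 of 204 cases. By this definition these are the cases with both arrays above 0, so the count restates the one above. The selection required every one of these means to exceed 0.1, and nothing is read from the count.

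**Figure D4:**
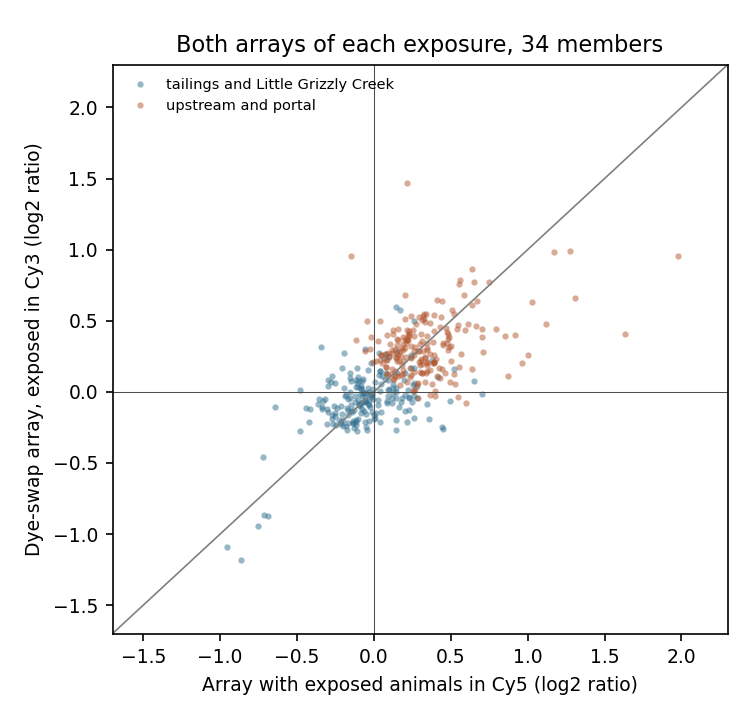
Log2 ratio of each member on the array with the exposed animals in Cy5 (x axis) and on its dye-swap array (y axis). Each point is 1 member in 1 exposure, in orange for upstream and portal and in blue for tailings and Little Grizzly Creek, and the diagonal marks equal values. Most orange points are positive on both arrays, with 12 of the 408 single-array values at or below 0.

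The difference between both arrays of an exposure, unlike their mean, was not used by the selection and was tested. A dye effect, the mean of that difference over the 4 sites divided by 2, passed limma's adjusted threshold in 0 of the 34 members, against 3.84% of all tested features. At an unadjusted p under 0.05 it was 9 of 34, which is 26.5%, a share near the 28.4% of all features. Their dye effects ranged from -0.17 to 0.12 log2 units, with a median of 0.021 against 0.017 over all. Without portal exposure 2 the adjusted count was 7, where 27.9% of all features passed, and with the exposure number as a replicate block it was 10, where 30.4% of all features passed. After quantile normalisation it was 1 (5.69% of all), and with arrays scaled to one median absolute deviation also 1 (5.78% of all). The dye effect differed between upstream and portal and the other 2 sites in 0 members after adjustment (0% of all) and in 0 at an unadjusted p under 0.05 (2.11% of all).

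The feature identifiers, which the selection did not use, fall into an A series of 7 prefixes and a P series of 13. The members were 15 of the A series and 19 of the P series. The A series thus held 44.1% of the members but 20.9% of the features with all 6 upstream and portal exposures measured, 844 of 4044. Prefixes A1, A2 and P1 held 5 members each and A3, P3 and P12 held 3 each, while A5 and A7 and 4 prefixes of the P series held 0. The sources used here do not say what the series and prefixes stand for.

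**Figure D5:**
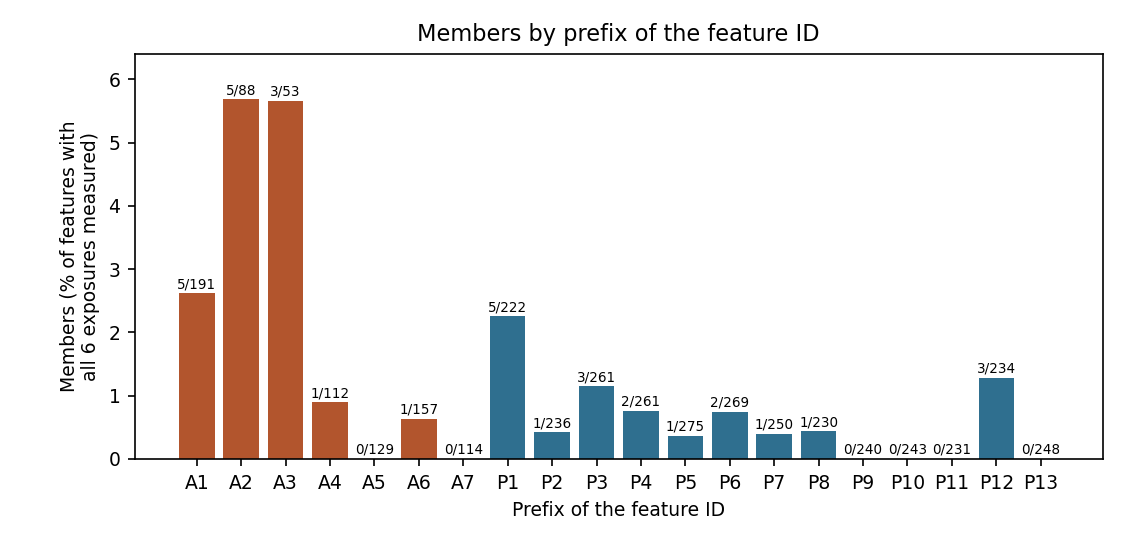
Members as a percentage of the features with all 6 upstream and portal exposures measured, for each prefix of the feature identifier, with both counts above each bar. Orange marks the A series and blue the P series. The highest shares are those of A2 (5 of 88) and A3 (3 of 53).

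The medians of both series were closer together at upstream and portal than at the sites that capped the members, which was not tested. Over features with all 6 exposures measured, the A series had medians of -0.043 at the tailings and -0.080 at the creek, and the P series 0.011 and 0.017. In upstream water the medians were -0.033 and -0.021, and in portal water -0.018 and -0.0072. The part of this offset in the share of members was not tested. Values above 0.1 in all 6 exposures were found in 7.11% of the A and 5.56% of the P features. The A members had a median difference between the site pairs of 0.39 log2 units (0.33 to 0.86) and the P members one of 0.31 (0.20 to 0.64), and 10 of 15 and 13 of 19 showed no overlap.

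Of the 238 features above 0.1 in all 6 exposures, 81 had means above 0 at both tailings and Little Grizzly Creek, 51 at Little Grizzly Creek only, 72 at tailings only, and the 34 members at neither. The same conditions with every sign turned were met by 79 of the 201 features below -0.1 in all 6 exposures, which is 39.3%. These 79 had median site means of -0.26 in upstream, -0.33 in portal, 0.37 in tailings and 0.12 in creek water, so that their tailings median was farther from the control than that of the 34. None of the 79 belonged to the A series. Of the 201, only 11 did. Values below -0.1 in all 6 exposures were found in 1.30% of the A and 5.94% of the P features.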

How the data were processed

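The members and comparisons were chosen with earlier results of these data known. The authors deposited a table of log ratios, read here as log2, of 7680 features on 24 two-colour arrays. How the arrays were scanned, the background correction and normalisation are not given in the sources used here. Medians per array ran from -0.0265 to 0.0177, near 0 as deposited. Samples were grouped by the labels. The dye-swap pair of each exposure was averaged to balance the dyes, without rescaling. No signal per channel was used, and precision is limited by how many arrays there are. limma 3.58.1 in R 4.3.3 (lmFit, eBayes) fitted 12 exposures with 1 mean per site over 6504 features, with Benjamini-Hochberg adjustment at 0.05. The fit was also run on simulated exposures with independent noise. These held no variation shared by an exposure number, so that run does not show how the fit behaves under such sharing. If exposures shared control animals, testing a ratio against 0 does not include how much the controls vary. The labels do not say whether they did. Exposures are biological replicates per the labels, which do not say whether they came from separate cultures, so p-values measure the spread between these exposures. With the block, 6315 features could be fitted.

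Members were named by a rule: the 2 with the highest upstream and portal means, the lowest tailings and Little Grizzly Creek means, the largest difference without overlap, the values nearest the floor, and the largest dye effect past the threshold, which none reached. Exposure numbers are shared by the sites. Once site means were taken out, same-numbered exposures had correlations over 0.1 at every number in some combinations of sites. These were upstream with portal (0.513 to 0.824), tailings with Little Grizzly Creek (0.263 to 0.647) and portal with Little Grizzly Creek (0.154 to 0.587). The numbers were thus taken to pair these sites, and not the other 3 combinations. The replicate block and the random effect used the number across every site, so they also joined those 3. Alternatives were quantile normalisation, scaling to one MAD (median absolute deviation), turning upstream exposure 2, single arrays for blanks, complete features, the replicate block, other floors and leaving out each exposure.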

Additional observations from a re-analysis of the deposited data

How the results depend on the processing

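The list depends on its limits, on the scaling and on single exposures. It held 57 features after quantile normalisation (28 of the 34 among them) and 54 with arrays scaled to one MAD (28). It held 64 with single arrays in place of blanks (33) and 2 with upstream exposure 2 turned (0). It held 59 with a floor of 0.05 (34), 8 with a floor of 0.2 (8) and 10 with all 12 arrays above 0.1 (10). When single exposures were left out it held 16 to 59. Without tailings exposure 1 it held 29 (21), and without tailings exposure 2 it held 33 (15). Without creek exposure 1 or 2, where blanks also removed members, it held 16 (15) and 17 (17). Leaving out any other exposure kept at least 32 of the 34. Of the 34, those called higher in upstream water numbered 13 after quantile normalisation (2.86% of all features), 14 after MAD scaling (2.86%) and 13 with the replicate block (2.8%). Without single exposures they numbered 0 to 5, the 5 beside 1.14% of all. In portal water they numbered 6 among complete features (1.64% of all of these) and 24 with the replicate block (7.13% of all). Without single exposures they numbered 0 to 11 there, the 11 beside 5.03% of all. Those called higher at upstream and portal than at the other sites numbered 0 with upstream exposure 2 turned (1.91% of all). They numbered 4 (1.53%) to 26 (8.01%) without single exposures. After quantile normalisation they numbered 28 (5.58%) and after MAD scaling 30 (6.89%). With the exposure number as a replicate block they numbered 29 (9.31%), and as a random effect 32 (10%). A dye effect was called in 1 after quantile normalisation (5.69% of all) and 1 after MAD scaling (5.78%). It was called in 2 among complete features (11.3% of all of these) and 10 with the replicate block (30.4% of all). Without single exposures it was called in 0 to 7, the 7 beside 27.9% of all. The members' median in upstream water was 0.34 after quantile normalisation, 0.13 with exposure 2 turned and 0.28 to 0.31 without single exposures, while without single exposures it was 0.23 to 0.37 in portal, -0.076 to 0.013 in tailings and -0.12 to -0.0080 in creek water. The cause of these shifts was not tested, beyond fewer exposures or features where some were left out. No difference of a named member between the site pairs changed sign under these alternatives, those for levels and named members having been chosen after seeing the data. The selection put every upstream and portal value above 0.1 and both other site means at or below 0. These signs were thus largely set in advance, and nothing is read from them. Blanks limit the list most in portal exposure 3, which was measured in 4434 of 6504 features.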
